A study of Mus musculus with 16 samples.

Results

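Transcription factors that give cortical projection neurons their deep-layer or upper-layer identity were followed in mouse neural stem and progenitor cells with and without the histone lysine acetyltransferase KAT7 (HBO1). The set held 9 named genes out of 27179 counted: Bcl11b, Fezf2, Sox5, Foxp1 and Foxp2 for the deep layers, and Cux1, Cux2, Bhlhe22 and Pou3f2 for the upper layers. They were chosen by name, with earlier results of these data known. Null cells came from Kat7lox/lox NesCreT/+ foetuses and intact cells from Kat7+/+ NesCreT/+ foetuses, so the Nestin-driven Cre transgene was present in both genotypes. Cells of 4 foetuses per genotype, taken at E14.5, were grown as neurospheres and sampled in 4 groups of 4 libraries: null differentiating, intact differentiating, null proliferating and intact proliferating. Differentiating cells had spent 3 days on laminin in cortical neuron medium after passage 3, and proliferating cells had been kept in growth medium for 3 passages and 3 days. The starting tissue was cortex together with ganglionic eminence, so dorsal and ventral forebrain cells were not separated.

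The cortex is built inside-out: radial glia first produce neurons of the deep layers and later those of the upper layers. Deep-layer neurons project mainly to targets below the cortex, and upper-layer neurons to other cortical areas. Fezf2 and its downstream factor Bcl11b (CTIP2) specify subcerebral projection neurons, and Sox5 controls the order in which deep-layer neuron types arise. Cux1 and Cux2 shape the dendrites and synapses of upper-layer neurons, Pou3f2 (BRN2) promotes their production and migration, and Bhlhe22 is a repressor that acts in the identity of cortical areas and neurons. Several of these genes are also used elsewhere. Bcl11b, Foxp1 and Foxp2 are expressed in striatal neurons, Sox5 in oligodendrocyte progenitors and Pou3f2 in neural progenitors.

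The labels were checked first. Kat7 had 1 count over the null differentiating libraries, against 103 ± 3.08 CPM (counts scaled to a common library total, mean ± SD, n = 4) in intact differentiating cells. It had 8 counts over the null proliferating libraries, against 139 ± 5.59 CPM in intact proliferating cells. Library totals were 16.8 to 47.9 M counts. The progenitor markers, 12 genes including Nes and Sox2, summed to 7440 to 8010 CPM in null proliferating libraries, against 7350 to 7870 CPM in intact libraries, and 6 microglial markers to at most 0.63 CPM in any library. Intact differentiating replicate 1 stood apart from its group in neuronal genes, with 7500 CPM summed over 12 of them against 2510 to 3860 CPM in the other 3.

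Promoter windows from 250 bases before to 50 after a transcription start were taken from RefSeq (GRCm38.p6), and 7 of the 9 genes had at least 1 such window, 10 in all. 3 are printed because they set a gene with almost no transcripts in null cells (Fezf2), a gene that was lower in proliferating cells but not called in differentiating ones (Sox5) and a gene with no call between genotypes (Cux1) beside each other. The Sox5 window belongs to an internal start, deep inside the gene and far downstream of its 5′ end, while those of Fezf2 and Cux1 lie near the 5′ ends of their genes. Each is on the minus strand and reads 5′ to 3′, and capitals mark CpG dinucleotides. The windows lie at chr14:12345816-12346115, chr6:143947057-143947356 and chr5:136565932-136566231.
Fezf2: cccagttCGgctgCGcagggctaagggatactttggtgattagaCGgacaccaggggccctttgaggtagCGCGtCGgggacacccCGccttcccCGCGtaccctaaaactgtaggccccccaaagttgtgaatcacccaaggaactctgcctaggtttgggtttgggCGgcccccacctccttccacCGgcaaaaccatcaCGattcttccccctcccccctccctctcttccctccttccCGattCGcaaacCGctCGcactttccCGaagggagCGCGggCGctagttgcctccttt
Sox5: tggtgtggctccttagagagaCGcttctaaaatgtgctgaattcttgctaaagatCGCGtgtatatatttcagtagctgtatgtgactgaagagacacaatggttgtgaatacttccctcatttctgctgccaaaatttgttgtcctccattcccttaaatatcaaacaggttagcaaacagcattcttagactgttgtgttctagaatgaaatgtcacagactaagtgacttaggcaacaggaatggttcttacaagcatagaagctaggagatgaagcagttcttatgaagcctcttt
Cux1: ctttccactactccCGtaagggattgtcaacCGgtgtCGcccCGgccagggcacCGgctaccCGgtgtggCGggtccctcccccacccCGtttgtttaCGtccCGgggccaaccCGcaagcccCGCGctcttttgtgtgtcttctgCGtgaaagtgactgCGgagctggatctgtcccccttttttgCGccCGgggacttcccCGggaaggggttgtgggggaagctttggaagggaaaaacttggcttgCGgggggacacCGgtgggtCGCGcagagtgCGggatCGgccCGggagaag
The Fezf2 window held 20 CpG dinucleotides and the Cux1 window 25, while the Sox5 window held 3, against a median of 7 over 32851 windows of all genes. G and C made up 61.3%, 65.0% and 39.7% of their bases, against a median of 52.7%. The Sox5 values describe that internal start and not the 5′ end of the gene. The 10 windows were also searched on both strands for AACAAT (SOX factors), ATGCAAAT (the POU octamer), TGTTTAC (forkhead factors) and CATATG (an E-box). These letters occur in 10.7%, 1.74%, 3.65% and 3.91% of all windows. A TGTTTAC match in Cux1 and an AACAAT match in a Foxp1 window were the matches found. None of the 4 motifs holds another, and CATATG is its own reverse complement.

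In differentiating cells, 5 of the 9 genes were lower in null than in intact cells and none was higher. They were Fezf2, Foxp1, Foxp2, Cux2 and Bhlhe22, and in each of these 5 every null library lay below every intact library. Among all 15177 genes tested, 46.4% were called in this comparison, 22.0% lower and 24.3% higher, and 20.4% had all null libraries below all intact ones. The median log2 fold change was -1.08 over the 9 genes and 0.04 over all genes. Bcl11b, Sox5, Cux1 and Pou3f2 were not called, and their libraries overlapped between genotypes. In proliferating cells, 4 of the 9 were lower and none was higher, with 38.6% of all genes called, 19.7% lower and 19.0% higher. Those 4 were the deep-layer genes Fezf2, Sox5, Foxp1 and Foxp2. Fezf2 was tested there only because the count filter ran over all 4 groups. On the 8 proliferating libraries alone neither it nor Bhlhe22 passed the filter, and 3 of the 9 genes were called. Calls are an adjusted p below 0.05 in edgeR's quasi-likelihood test. With library size scaling in place of trimmed-mean scaling, the lower share of all called genes was 60.6% rather than 47.5% in differentiating cells and 63.3% rather than 50.9% in proliferating cells.

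**Figure D1:**
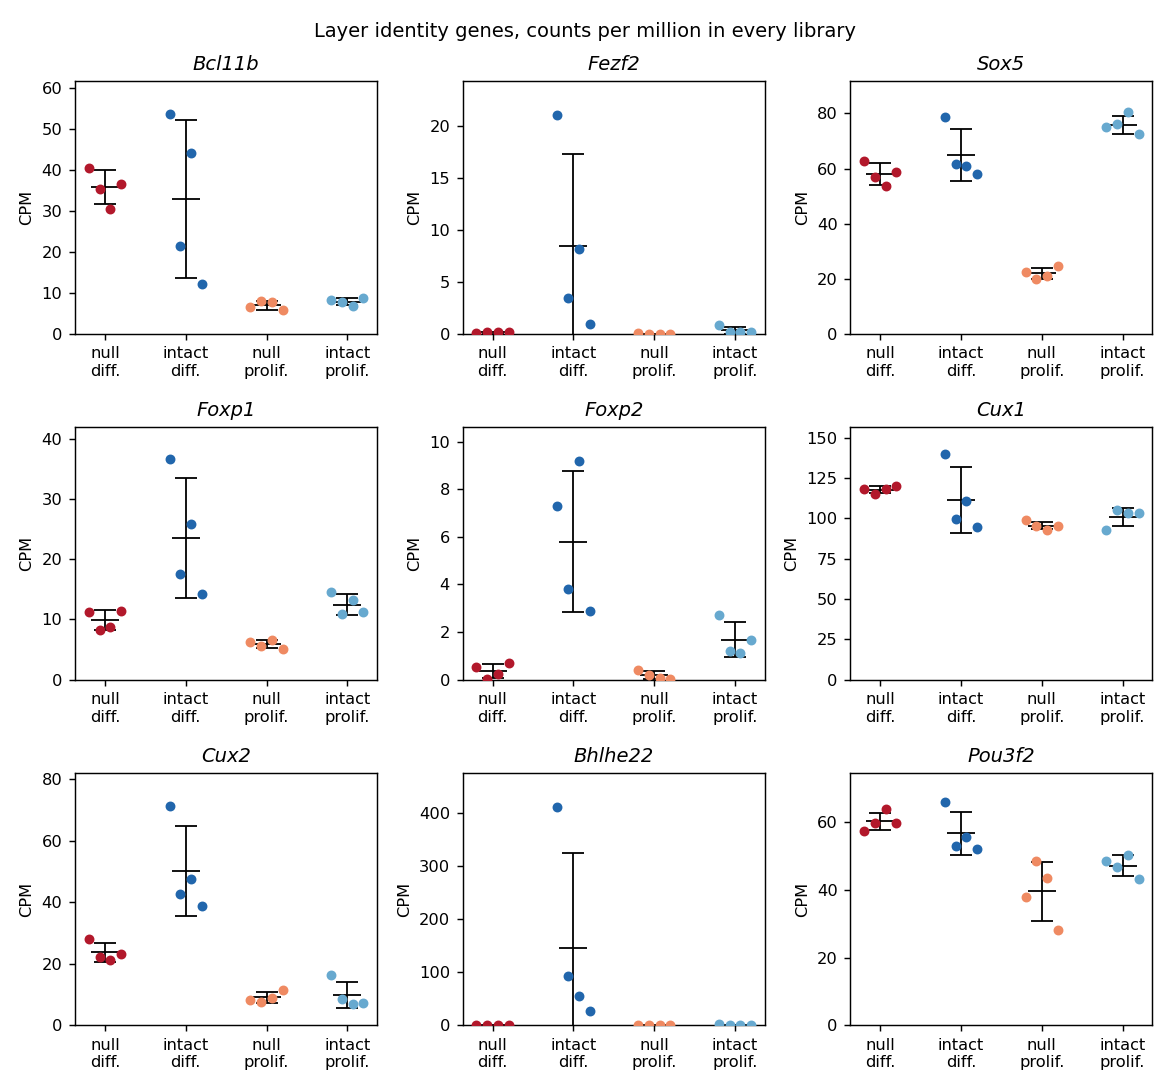
CPM (vertical axis from 0) of the 9 genes in each library of the 4 groups; points are libraries, the long bar is the mean and the whiskers are 1 SD (n = 4), ending at 0 where they would pass below it. Bhlhe22 and Fezf2 are near 0 in all but the intact differentiating libraries, Sox5 is low in null proliferating libraries (19.9 to 24.6 CPM), and Bcl11b is high in differentiating libraries of both genotypes.

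Fezf2 (Entrez 54713; chromosome 14, 12338992 to 12346803 in GRCm38), the zinc finger factor of subcerebral projection neurons, had almost no transcripts in null cells. Its levels were 0.0349, 0.153, 0.213 and 0.174 CPM in null differentiating replicates 1 to 4, against 21.0, 3.46, 8.16 and 0.959 CPM in intact differentiating replicates 1 to 4. The intact libraries themselves spanned a 21.9-fold range, and the lowest of them was still above the highest null library. The log2 fold change was -5.81 ± 0.89 (SE, edgeR adjusted p = 9.0e-05), and it was -4.80 without intact differentiating replicate 1. In proliferating cells, Fezf2 had 1 count in null replicate 1 and 0 in the other 3, against 18, 3, 4 and 4 counts in the intact libraries. The null level was 2.75% of the intact level (95% counting interval 0.0696 to 15.3%, which covers counting error only). That proliferating difference was called (edgeR adjusted p = 0.0314), but the call was lost when null proliferating replicate 1, 2, 3 or 4 or intact proliferating replicate 1 was left out (adjusted p between 0.0574 and 0.127). Fezf2 passed the count filter through its intact differentiating counts and did not pass it on the proliferating libraries alone.

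Bhlhe22 (Entrez 59058; chromosome 3, 18054325 to 18057514), a basic helix-loop-helix repressor, differed more than any other of the 9 in differentiating cells. Null differentiating replicates 1 to 4 had 0.105, 0.123, 0.66 and 0.319 CPM. Intact differentiating replicates 1 to 4 had 411, 93.0, 55.5 and 26.9 CPM, so the lowest intact library was far above the highest null library. The log2 fold change was -8.78 ± 0.95 (edgeR adjusted p = 4.8e-06), it was -7.47 without intact differentiating replicate 1, the library that also stood apart in neuronal genes, and -9.61 without null differentiating replicate 3. In proliferating cells the gene had 2, 0, 0 and 3 counts in the null libraries, against 37, 7, 12 and 6 counts in the intact libraries. The groups did not overlap there either, but the difference was not called (log2 fold change -3.97 ± 1.94, edgeR adjusted p = 0.119). It passed under DESeq2 (adjusted p = 0.00171) and without intact differentiating replicate 1 (edgeR adjusted p = 0.00979), and adjusted p ranged from 0.00171 to 0.355 over the alternatives. Bhlhe22 did not pass the count filter on the proliferating libraries alone, so that alternative gave no value.

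Foxp2 (Entrez 114142; chromosome 6, 14901349 to 15441977), the forkhead factor of deep-layer and striatal neurons, was low in all groups and lower in null cells in both culture conditions. It had 0.523, 0.0306, 0.234 and 0.696 CPM in null differentiating libraries, against 7.3, 3.8, 9.2 and 2.88 CPM in intact differentiating libraries. All null libraries were below all intact libraries (log2 fold change -3.98 ± 0.67, edgeR adjusted p = 2.0e-04). In proliferating cells the values were 0.419, 0.185, 0.0832 and 0.0283 CPM in null libraries, against 2.71, 1.19, 1.11 and 1.67 CPM in intact libraries (-3.25 ± 0.75, edgeR adjusted p = 0.00327). Without null proliferating replicate 1, the highest of its group, that difference was -4.33. These null values rest on 51 counts over 4 differentiating and 18 counts over 4 proliferating libraries.

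Foxp1 (Entrez 108655; chromosome 6, 98925342 to 99522746), its close relative, differed less. Null differentiating libraries had 11.3, 8.24, 8.82 and 11.4 CPM, against 36.6, 17.6, 25.8 and 14.3 CPM in intact differentiating libraries (-1.25 ± 0.23, edgeR adjusted p = 5.0e-04). Null proliferating libraries had 6.31, 5.61, 6.53 and 5.13 CPM, against 14.54, 10.9, 13.2 and 11.2 CPM in intact proliferating libraries (-1.08 ± 0.24, edgeR adjusted p = 0.00246). The genotypes did not overlap in either condition, and both calls held under all 24 alternatives.

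Sox5 (Entrez 20678; chromosome 6, 143828425 to 144782287), an HMG-box factor of deep-layer neurons and oligodendrocyte progenitors, had lower levels in null cells during proliferation and was not called after differentiation, and the difference between the conditions was itself called. Null proliferating libraries had 22.4, 19.9, 21.1 and 24.6 CPM, against 74.9, 76.0, 80.4 and 72.6 CPM in intact proliferating libraries. The groups lay far apart with little spread within either (-1.78 ± 0.0964, edgeR adjusted p = 1.7e-08). Null differentiating libraries had 62.8, 57.0, 53.5 and 58.8 CPM, against 78.8, 61.8, 60.9 and 57.9 CPM in intact differentiating libraries. Here the genotypes overlapped (-0.16 ± 0.0924, edgeR adjusted p = 0.171, approximate 95% interval -0.34 to 0.02). With library size scaling the differentiating difference was called too (-0.25, edgeR adjusted p = 0.0321). The interaction, the null response to differentiation minus the intact response, was 1.62 ± 0.13 (edgeR adjusted p = 4.5e-06) and stayed between 1.56 and 1.74 under 24 alternatives. Of the 9 genes, 1 had a called interaction, Sox5, and 22.7% of all genes had one, 12.7% with a higher and 9.93% with a lower response in null cells.

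Oligodendrocyte lineage markers, 12 genes including Sox10 and Pdgfra, moved with Sox5 in proliferating cells. They summed to 1850 to 2360 CPM in null proliferating libraries, against 3120 to 3600 CPM in intact libraries, with 10 of 12 lower and none higher. In differentiating cells, where Sox5 was not called, they summed to 2420 to 3050 CPM in null and 3960 to 9150 CPM in intact libraries, with 9 of 12 lower. None of the 12 was at 0 in any group. Their part in the Sox5 difference was not tested. In these bulk samples, fewer cells of a type and less RNA per cell cannot be told apart. The counts of this and the later gene lists stand beside large shares over all genes tested. In differentiating cells 22.0% were lower and 24.3% higher in null cells, and in proliferating cells 19.7% were lower and 19.0% higher.

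Cux2 (Entrez 13048; chromosome 5, 121857962 to 122050415), a homeodomain factor of upper-layer neurons, was lower in null cells after differentiation. Null differentiating libraries had 28.1, 22.2, 21.3 and 23.2 CPM, against 71.3, 42.8, 47.6 and 38.7 CPM in intact differentiating libraries (-1.08 ± 0.25, edgeR adjusted p = 0.0022). The groups did not overlap. In proliferating cells, null libraries had 8.16, 7.65, 8.9 and 11.6 CPM, against 16.3, 8.71, 7.09 and 7.38 CPM in intact libraries, and the groups overlapped (-0.11 ± 0.26, edgeR adjusted p = 0.757). The interaction was -0.97 ± 0.35 and was not called (edgeR adjusted p = 0.062). Without intact proliferating replicate 1, the highest library of its group, it was -1.32 with an adjusted p of 0.00326, and it was called under 7 of 24 alternatives in all.

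Bcl11b (Entrez 58208; chromosome 12, 107910403 to 108004145), which acts downstream of Fezf2 in the cortex and is also a striatal factor, was not called in either condition. It had 40.5, 35.3, 30.5 and 36.5 CPM in null differentiating libraries, against 53.6, 21.4, 44.0 and 12.2 CPM in intact differentiating libraries. The null values fell inside the range of the intact values (0.12 ± 0.31, edgeR adjusted p = 0.777, approximate 95% interval -0.49 to 0.74). In proliferating cells, null libraries had 6.45, 7.89, 7.74 and 5.73 CPM, against 8.19, 7.74, 6.86 and 8.69 CPM in intact libraries (-0.19 ± 0.34, edgeR adjusted p = 0.698). Bcl11b was thus at 35.7 ± 4.08 CPM in the null differentiating cells in which Fezf2 averaged 0.144 ± 0.0767 CPM. Of 12 ventral forebrain and GABAergic genes, 6 were higher and 2 lower in those cells. They summed to 438 to 617 CPM in null differentiating libraries, against 118 to 318 CPM in intact libraries. Genes of striatal projection neurons went the other way in the same cells, with 5 of 10 tested lower, 1 higher and a median log2 fold change of -1.05. The part of either list in the Bcl11b level was not tested.

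Cux1 (Entrez 13047; chromosome 5, 136248135 to 136567590) and Pou3f2 (Entrez 18992; chromosome 4, 22482095 to 22488366) were expressed in every library, and neither was called between genotypes in the fit. Cux1 had 118, 115, 118 and 120 CPM in null differentiating libraries, against 140, 99.3, 111 and 94.6 CPM in intact differentiating libraries (0.09 ± 0.0933, edgeR adjusted p = 0.479, approximate 95% interval -0.10 to 0.27). Without intact differentiating replicate 1 the difference was 0.21 and was called (edgeR adjusted p = 0.00969). Pou3f2 had 57.5, 59.9, 63.8 and 59.9 CPM in null differentiating libraries, against 66.0, 52.9, 55.8 and 52.1 CPM in intact differentiating libraries (0.09 ± 0.13, edgeR adjusted p = 0.597). In proliferating cells, Cux1 was at 92.9 to 98.7 CPM in null and 92.5 to 105 CPM in intact libraries, and Pou3f2 at 28.3 to 48.7 CPM in null and 43.3 to 50.2 CPM in intact libraries. Both overlapped there, with log2 fold changes of -0.08 ± 0.0938 for Cux1 (edgeR adjusted p = 0.541) and -0.26 ± 0.13 for Pou3f2 (edgeR adjusted p = 0.128). The Pou3f2 difference was called without null proliferating replicate 2 (-0.37, edgeR adjusted p = 0.0321), and it was -0.12 without null proliferating replicate 4 (edgeR adjusted p = 0.361). Replicate 4 had the lowest Pou3f2 level, at 28.3 CPM. It also had the highest sums of its group over 8 vascular markers, at 125 CPM against 35.7 to 45.9 CPM in the other 3, and over 12 astrocyte markers, at 4570 CPM against 3070 to 3440 CPM. Most of the vascular sum was Acta2, at 59.8 ± 41.8 CPM in null proliferating cells, while the vascular marker Kdr was at 0.077 ± 0.0609 CPM. The part of either marker list in the Pou3f2 level was not tested.

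**Figure D2:**
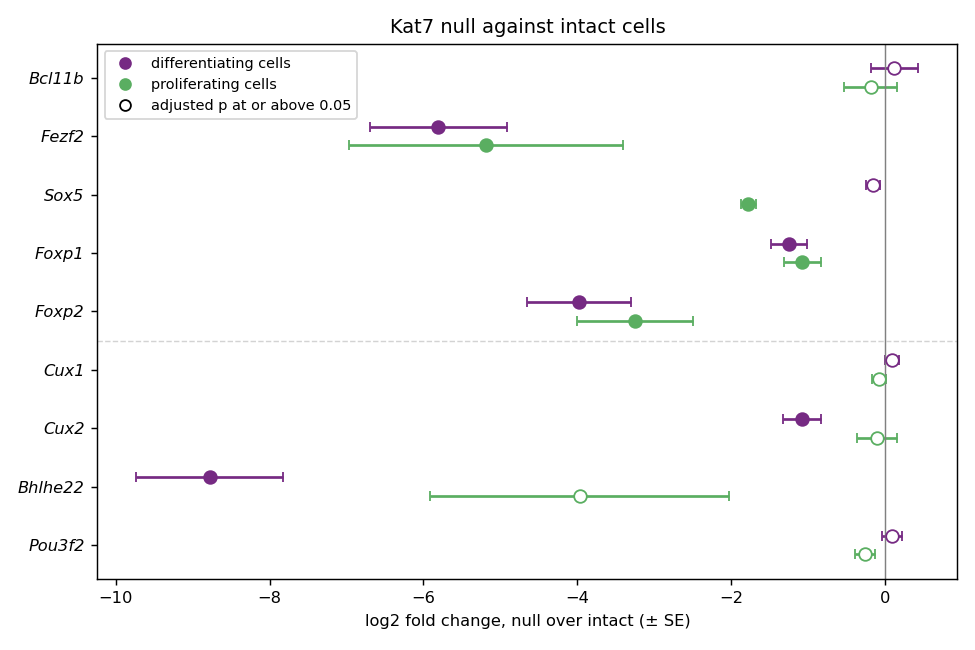
Log2 fold change of null over intact cells with its standard error (horizontal axis) for the 9 genes, in differentiating and in proliferating cells; deep-layer genes are above the dashed line and upper-layer genes below it, and open circles were not called. Bhlhe22 (-8.78) and Fezf2 (-5.81) had the lowest values in differentiating cells, and Sox5 lies at -0.16 in differentiating and -1.78 in proliferating cells.

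Differentiation raised most of the 9 genes. In null cells, 6 were higher in differentiating than in proliferating cells and none was lower, and in intact cells 6 were higher and 1, Sox5, was lower. The background was large, since 69.0% of all tested genes were called in null cells, 34.6% higher and 34.4% lower, and 72.0% in intact cells, 36.7% higher and 35.3% lower. The comparisons share libraries with those between genotypes, so they are not independent of them. The fit also treated differentiating and proliferating libraries as independent. Which of them come from the same foetus is not given, so any such pairing was ignored in these tests and in the interaction. Bcl11b rose in both genotypes, to 35.7 ± 4.08 CPM in null differentiating cells against 6.95 ± 1.04 CPM in null proliferating cells (2.37 ± 0.34, edgeR adjusted p = 1.7e-05), and to 32.8 ± 19.3 CPM in intact differentiating cells against 7.87 ± 0.775 CPM in intact proliferating cells (2.06 ± 0.33, edgeR adjusted p = 6.1e-05). On the log2 scale, Cux2 rose by 1.38 ± 0.25 in null cells (edgeR adjusted p = 1.9e-04) and by 2.35 ± 0.26 in intact cells (edgeR adjusted p = 1.4e-06). Foxp1 rose by 0.75 ± 0.24 in null cells (edgeR adjusted p = 0.011) and by 0.92 ± 0.23 in intact cells (edgeR adjusted p = 0.00242), although the intact Foxp1 libraries overlapped.

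Bhlhe22, Fezf2 and Foxp2 rose in intact cells. Bhlhe22 averaged 147 ± 179 CPM in intact differentiating cells against 0.749 ± 0.706 CPM in intact proliferating cells (7.62 ± 0.91, edgeR adjusted p = 2.9e-06). Fezf2 averaged 8.4 ± 8.93 CPM against 0.35 ± 0.348 CPM (4.59 ± 0.84, edgeR adjusted p = 1.7e-04), and Foxp2 5.79 ± 2.97 CPM against 1.67 ± 0.739 CPM (1.79 ± 0.59, edgeR adjusted p = 0.0135). Single libraries moved the first 2 of these changes. Without intact differentiating replicate 1 they were 6.29 for Bhlhe22 and 3.58 for Fezf2, and without intact proliferating replicate 1 they were 8.51 and 5.57. In null cells none of these 3 was called in the fit without a block, with changes of 2.80 ± 2.14 for Bhlhe22, 3.97 ± 1.98 for Fezf2 and 1.06 ± 0.81 for Foxp2 (edgeR adjusted p of 0.256, 0.0874 and 0.255). Their null values are small counts, and the Bhlhe22 and Fezf2 changes passed the DESeq2 test (adjusted p of 0.0238 and 0.011) and under 3 and 6 alternatives in all, so these null changes depend on the fit. The difference in response was not called for any of the 3 (edgeR adjusted p of 0.396, 0.909 and 0.634). Its approximate 95% interval for Fezf2 ran from -6.66 to 5.42, and that interval is rough at counts this low. For Fezf2 and Foxp2 a different response was not detected, which does not show that the responses were equal. For Bhlhe22 a different response passed under DESeq2 (-4.86, adjusted p = 0.00739).

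Sox5 responded differently in the 2 genotypes. It rose to 58.1 ± 3.88 CPM in null differentiating cells, against 22.0 ± 2.01 CPM in null proliferating cells (1.40 ± 0.0953, edgeR adjusted p = 8.6e-09), with all differentiating libraries above all proliferating ones. In intact cells it was at 64.9 ± 9.48 CPM in differentiating and 76.0 ± 3.24 CPM in proliferating cells (-0.23 ± 0.0926, edgeR adjusted p = 0.0376). This small intact decrease was lost under 10 of 25 alternatives, among them both other scalings, and the libraries overlapped. Cux1 and Pou3f2 rose in null cells (0.30 ± 0.0936 and 0.61 ± 0.13, edgeR adjusted p of 0.00958 and 6.0e-04). In intact cells they changed by 0.14 ± 0.0937 and 0.26 ± 0.13 (edgeR adjusted p of 0.193 and 0.0754), and neither interaction was called (edgeR adjusted p of 0.398 and 0.184). The intact Pou3f2 change was called under 6 of 25 alternatives, both other scalings among them, and the intact Cux1 change with library size scaling (0.21, edgeR adjusted p = 0.0322). The Cux1 interaction was called without intact differentiating replicate 1 (0.29, edgeR adjusted p = 0.0181).

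**Figure D3:**
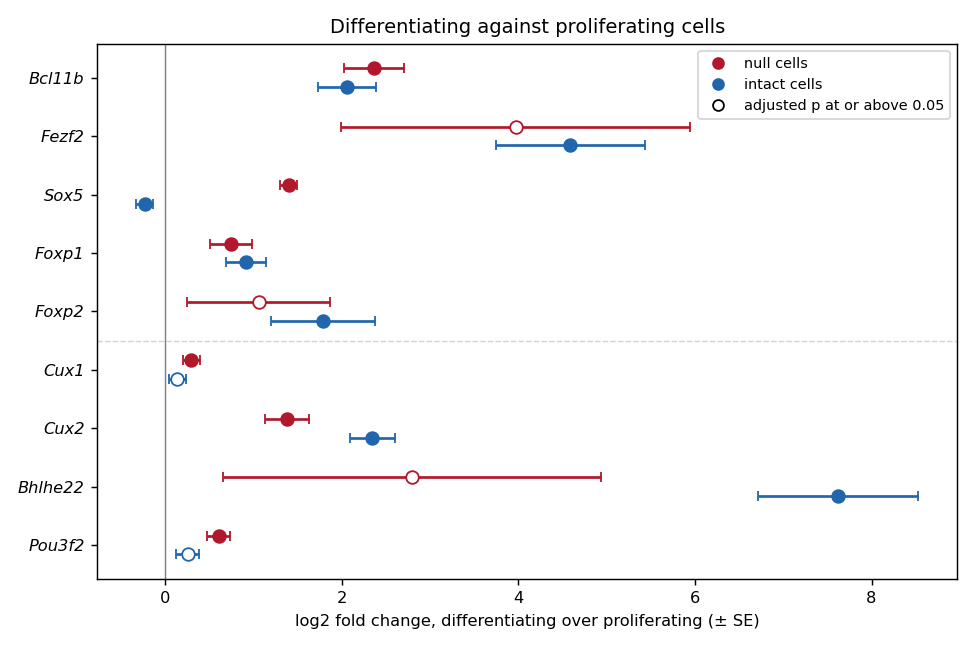
Log2 fold change of differentiating over proliferating cells with its standard error (horizontal axis) for the 9 genes, in null and in intact cells; deep-layer genes are above the dashed line and upper-layer genes below it, and open circles were not called. Sox5 lies at 1.40 in null and -0.23 in intact cells, and Bhlhe22 at 2.80 in null and 7.62 in intact cells with a wide error in null cells.

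Levels were compared between genes in TPM (counts per length of the gene model, scaled to a common total). In null differentiating cells the order was Cux1 (40.7 ± 1.38 TPM), Pou3f2 (21.8 ± 0.701), Sox5 (18.0 ± 1.52), Cux2 (10.6 ± 1.56), Bcl11b (10.3 ± 1.34), Foxp1 (3.02 ± 0.547), Bhlhe22 (0.214 ± 0.181), Fezf2 (0.141 ± 0.0745) and Foxp2 (0.12 ± 0.0966). Cux2 and Bcl11b overlapped in range, as did the lowest 3. In intact differentiating cells Bhlhe22 led with 114 ± 139 TPM, but its libraries ran from 20.2 to 321 TPM and overlapped those of Cux1 (41.9 ± 8.18 TPM). Cux2 (24.3 ± 7.29), Pou3f2 (22.4 ± 2.81) and Sox5 (21.9 ± 3.37) overlapped each other, as did Bcl11b (10.4 ± 6.21), Fezf2 (9.12 ± 9.66) and Foxp1 (7.84 ± 3.41), and Foxp2 had the lowest mean (2.05 ± 1.11 TPM), with libraries that overlapped those of Fezf2. The 3 genes at the bottom of the null order thus included the gene at the top of the intact order.

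In proliferating cells, Cux1 was highest in both genotypes, with 29.8 ± 0.793 TPM in null and 33.0 ± 0.319 TPM in intact cells. Pou3f2 came next in null cells (13.0 ± 2.94 TPM), above Sox5 (6.16 ± 0.586 TPM). In intact cells Sox5 (22.4 ± 1.41 TPM) was above Pou3f2 (16.3 ± 1.62 TPM), with no overlap in range in either genotype. Fezf2 and Bhlhe22 averaged at most 0.0248 TPM in null and 0.527 TPM in intact proliferating cells.

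The spread between libraries differed from gene to gene. In intact differentiating cells the highest library exceeded the lowest 21.9-fold for Fezf2, 15.3-fold for Bhlhe22, 4.39-fold for Bcl11b and 3.2-fold for Foxp2. The same ratio was 2.57 for Foxp1, 1.84 for Cux2, 1.48 for Cux1, 1.36 for Sox5 and 1.27 for Pou3f2. Replicate 1 was the highest of the 4 for all genes but Foxp2, which peaked in replicate 3, and replicate 4 was the lowest for all 9. In null differentiating cells Bcl11b spanned only 1.32-fold and Cux1 1.05-fold.

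**Figure D4:**
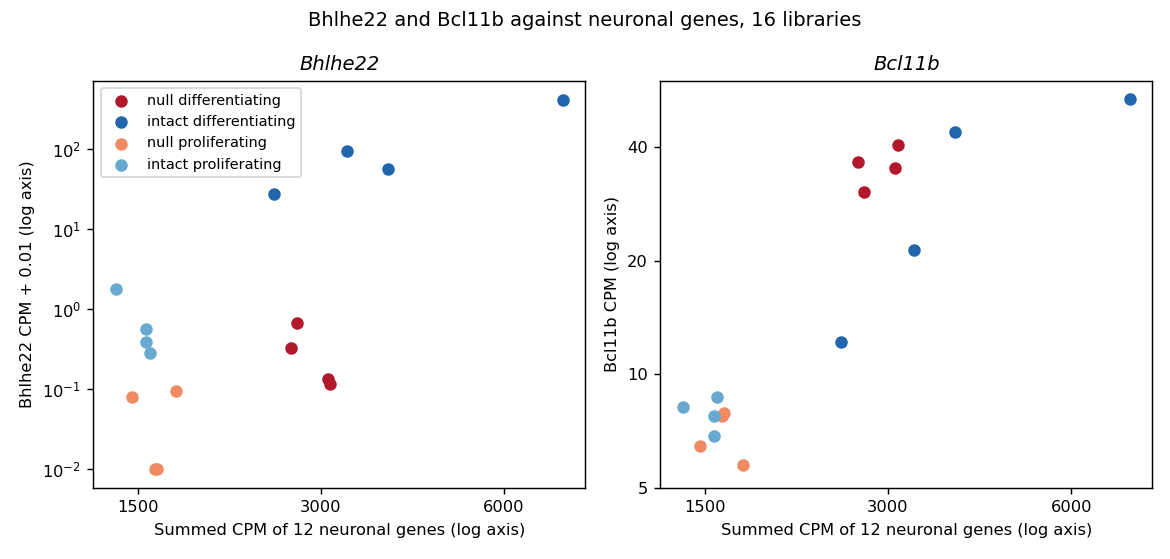
CPM of Bhlhe22 (left, with 0.01 added so that 0 can be drawn) and Bcl11b (right) against the summed CPM of 12 neuronal genes in the 16 libraries, on log axes. Null differentiating libraries lie within the neuronal sums of intact differentiating libraries but at 0.105 to 0.66 CPM of Bhlhe22, while their Bcl11b values (30.5 to 40.5 CPM) lie among the intact ones. Similar sums do not show similar neuronal content. The sum was 1380 to 1730 CPM in proliferating libraries, and 6 of the 12 genes were lower and 1 higher in null differentiating cells.

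General neuronal genes were set beside these results. The 12 genes, including Tubb3, Dcx and Stmn2, summed to 2680 to 3110 CPM in null differentiating libraries, against 2510 to 7500 CPM in intact libraries, and the groups overlapped. Of the 12, 6 were lower and 1 was higher in null differentiating cells, with a median log2 fold change of -1.19. Stmn2, a microtubule regulator of growing axons, was at 0.588 ± 0.245 CPM in null differentiating cells, against 284 ± 309 CPM in intact cells (-8.86 ± 1.18, edgeR adjusted p = 2.8e-05), a fall close in size to that of Bhlhe22. In proliferating cells 3 of the 12 were lower and none higher, and the sums were 1470 to 1730 CPM in null and 1380 to 1570 CPM in intact libraries. Of 12 progenitor genes, 9 were higher in null differentiating cells, with a sum of 4790 to 5820 CPM against 2870 to 3820 CPM in intact ones, and of 12 astrocyte genes 9 were higher, with a sum of 6410 to 9990 CPM against 2260 to 3450 CPM. How far the neuronal, progenitor or glial content of a culture sets the level of the layer genes was not tested.

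Other genes of cortical projection neurons gave a mixed picture. Of 20 further genes, 19 were tested, and 9 were lower and 3 higher in null differentiating cells (median log2 fold change -0.74). Unc5d, a netrin receptor of upper-layer cells, was at 0.231 ± 0.143 CPM in null differentiating cells, against 20.2 ± 15.3 CPM in intact cells (-6.38 ± 0.67, edgeR adjusted p = 3.6e-06). Rorb, a nuclear receptor of the cortical input layer, went the other way, at 51.2 ± 3.16 CPM in null differentiating cells, against 22.4 ± 3.2 CPM in intact cells (1.19 ± 0.11, edgeR adjusted p = 1.4e-06), and so did Lmo3 (1.05 ± 0.14). In proliferating cells 8 of the 19 were lower and 2 higher (median -0.24). Ldb2, a LIM-domain cofactor of deep-layer neurons, was at 0.978 ± 0.455 CPM in null proliferating cells, against 6.84 ± 5.04 CPM in intact cells (-2.77 ± 0.52, edgeR adjusted p = 6.7e-04), and Rorb was again higher in null cells (0.60 ± 0.11, edgeR adjusted p = 7.1e-04). Crym was at 0 counts in all null proliferating libraries.

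Relatives of the 9 genes and striatal genes were examined as well. Of 10 paralogs, 7 were tested, with 1 higher and 2 lower in null differentiating cells and 4 lower in null proliferating cells. Over all genes tested, 46.4% were called between genotypes in differentiating and 38.6% in proliferating cells. Bcl11a, the paralog of Bcl11b, was at 13.7 ± 1.57 CPM in null differentiating cells, against 86.6 ± 55.6 CPM in intact cells (-2.66 ± 0.39, edgeR adjusted p = 6.9e-05), whereas Bcl11b was not called. Pou3f1, a relative of Pou3f2, was at 1.2 ± 0.605 CPM in null differentiating cells, against 12.1 ± 11.7 CPM in intact cells (-3.35 ± 0.59, edgeR adjusted p = 3.3e-04). Pou3f4 was higher (0.71 ± 0.13, edgeR adjusted p = 4.7e-04). Of 14 genes of striatal projection neurons, 10 were tested, and in null proliferating cells 3 were lower and 1 was higher. Zfp503, a zinc finger factor of the striatum, fell by 2.43 on the log2 scale in differentiating cells (edgeR adjusted p = 3.8e-07), and Six3 was higher (2.23 ± 0.36, edgeR adjusted p = 1.5e-04).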

How the data were processed

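Libraries of polyadenylated RNA were read from both ends over 75 bases, per the labels' protocols. The deposited files hold raw read counts per gene, made by the authors with featureCounts against mm10 after bcl2fastq, per the submitters' processing notes, beside the length of each gene model. Strand setting, software versions and aligner: not given in the sources used here. RefSeq genes that overlap the 9 genes had no counts of their own or were not counted. Symbols were matched for 25275 of 27179 identifiers with RefSeq (GRCm38.p6, the assembly mm10 names).

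Counts were fitted with edgeR 4.0.16 in R 4.3.3 over all 16 libraries, with 1 mean per group and no covariate. filterByExpr (minimum count 10) kept 15177 genes, all 9 included, and scaling was by trimmed mean of M values. P-values were adjusted by Benjamini-Hochberg over all genes tested. The standard error (SE) is the log2 fold change over the square root of the F statistic, and an approximate 95% interval was taken from it. Both are rough for genes with counts near 0, above all for the interaction. DESeq2 1.42.0 was an alternative, and the fit was checked on simulated counts. The genes, lists and tests were chosen with earlier results of these data known. Named genes were the 9, Kat7, up to 4 called genes per list with the lowest adjusted p, and the 2 most alike genes each. Which of the list genes are printed was chosen after their values were seen, and Crym was named for its 0 counts. Alternatives were other scalings, other count minimums, DESeq2, fits on the 8 libraries compared, replicate blocks and each library left out. For Foxp1 and Pou3f2, 1 of the 2 most alike genes is not reported here.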

Additional observations from a re-analysis of the deposited data

Results flagged for a closer look

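Fezf2 was flagged for a library apart from the rest in both proliferating groups. In null proliferating cells a single count in replicate 1 stood against 0 in the other 3. The gap then takes up a share of 1.0 of the group's range by construction, so this flag does not mark an unusual library. In intact proliferating cells replicate 1 was at 0.872 CPM against 0.162 to 0.184 CPM in the other 3, a share of 0.969, above Dixon's critical value for 4 samples. These were 2 of 36 groups examined, and chance flags about 1 in 20, a rate that does not hold for counts this low.

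The Sox5 response to differentiation differed between genotypes by 1.62 ± 0.13 on the log2 scale (edgeR adjusted p = 4.5e-06). All null differentiating libraries were above all null proliferating libraries, while the intact groups overlapped.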

How the results depend on the processing

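Of the calls between genotypes, those of Foxp1, Foxp2, Cux2, Fezf2 and Bhlhe22 in differentiating cells and of Sox5, Foxp1 and Foxp2 in proliferating cells kept direction and threshold under every alternative that gave a value. The number of the 9 genes called stayed at 4 to 6 in differentiating and 3 to 5 in proliferating cells. Fezf2 did not pass the count filter with a minimum count of 50. Neither Fezf2 nor Bhlhe22 passed it on the proliferating libraries alone. For the interaction, 1 gene was called, and the number was 2 with a minimum count of 50, 3 with the DESeq2 test, 3 without replicate 1 of both intact groups, and 1 to 2 with single libraries left out. The causes were not tested.

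Signs turned only for differences that were not called. With single libraries left out, the genotype difference ran from -0.25 to 0.24 for Cux2 in proliferating cells (0.24 without intact proliferating replicate 1) and from -0.15 to 0.47 for Bcl11b in differentiating cells (-0.04 and -0.15 without intact differentiating replicate 2 or 4). The interaction ran from -1.60 to 0.39 for Fezf2 and from -0.35 to 0.13 for Foxp1 (both highest without intact differentiating replicate 1), and from -1.25 to 0.35 for Foxp2 (highest without null proliferating replicate 1). The Cux1 response of intact cells was 0.01 to 0.21. Without replicate 1 of both intact groups, Cux2 was 0.24, the Cux1 response -0.03 and the Foxp1 interaction 0.04. Without null proliferating replicate 1 no null proliferating count of Fezf2 remained, so no fold was given (edgeR adjusted p = 0.0615 between genotypes).

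Libraries shared only a number, and whether equal numbers mark the same foetus is not known: same-number residual correlations of differentiating and proliferating libraries were -0.231 to 0.126 in intact and -0.0284 to 0.0331 in null cells, and no more than 1 library of a group correlated best with its own number. With the number as a replicate block the interaction called 2 genes and Fezf2 was 0.05. An isolate block took libraries of equal genotype and number as the same isolate, which is assumed and not given by the labels. With it the interaction called 3, Bhlhe22 among them (edgeR adjusted p = 0.0319), while genotype differences cannot be had with that block. In null cells the Fezf2 response was called with either block (edgeR adjusted p = 0.0238 by number and 0.0175 by isolate) and the Bhlhe22 response with the isolate block (0.00857). Fezf2, Foxp2 and Bhlhe22 had few counts in null cells, 1 to 51 per group. How far depth or the spread between libraries limits their tests was not tested.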

Other observations

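For each of the 9 genes, genes with a similar profile over the 16 libraries were ranked by the root mean square difference of log2 CPM after each gene's mean was removed. The measure was not scaled to a gene's range. Genes that changed little therefore lie close to each other, and genes with a wide range lie far from most. A small value does not by itself show shared regulation. Cux1 had the closest matches, Cdc42bpb (0.0642) and Agap3 (0.0779), followed by Pou3f2 with Lsm14b (0.129). Foxp1 was close to Foxo6 (0.222), and Cux2 was nearest to Lmtk3 (0.205) and Carmil3 (0.222). Sox5 was nearest to St6gal1 (0.295) and Selenow (0.301), and Bcl11b to Drp2 (0.332) and Add2 (0.353). Genes with low counts in null cells had looser matches, with Tmem150c (0.384) and AF357359 (0.40) for Fezf2, Tmem132c (0.633) and Igf1 (0.66) for Foxp2, and Stmn2 (0.684) and Syt4 (0.731) for Bhlhe22. Among the 9 themselves, Cux1 and Pou3f2 were the most alike (0.219) and Cux1 and Bhlhe22 the least (3.8). The libraries are shared by all these profiles.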
